A study of Homo sapiens with 18 samples.

Results

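The unfolded protein response and the ATF4 stress response were followed through 33 genes in OVCAR-3 cells, an established line of high-grade serous ovarian carcinoma, that had been exposed to an inhibitor of the BET family of bromodomain proteins. The genes were taken from a fixed list of symbols, matched to the Ensembl identifiers of the count tables, and all 33 of 33 were found among the 58825 genes counted. They were divided by general knowledge into an ATF4 arm of 14 genes, an XBP1 arm of 9 and an ATF6 arm of 10, and 7 genes of the last pair of arms are known to answer to both XBP1 and ATF6. The study asked how the compound i-BET858 differs from i-BET151, another BET inhibitor, in what it does to transcription. Cells of 1 line received the vehicle DMSO, i-BET858 or i-BET151, each compound at 1 µM, for 4 or 24 h in stripped media. Poly-A RNA of 3 replicates of each of the 6 groups was sequenced, which gives 18 libraries.

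Misfolded proteins in the endoplasmic reticulum are sensed by 3 membrane proteins, each of which opens an arm of the response. PERK (gene EIF2AK3) phosphorylates the initiation factor eIF2α, which slows translation but favours that of ATF4, a transcription factor of amino acid supply and stress genes that also answers to other eIF2α kinases. IRE1 (ERN1) splices the messenger of XBP1, whose product drives genes of protein folding and degradation, and ATF6 is cut in the Golgi to release a factor that drives chaperone genes. Gene counts show neither the translation of ATF4, nor the splicing of XBP1, nor the cleavage of ATF6, so the values below are of messenger abundance and not of the activity of an arm. In bulk RNA, fewer cells with a transcript and less of it per cell cannot be told apart.

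The promoters of the genes were read for sequence elements known from these responses. Windows of 250 bases before to 50 bases after the annotated start were taken from RefSeq (GRCh38.p14, the build family of the study's alignments), and 32 of the 33 genes had one. They were searched on both strands for the endoplasmic reticulum stress element ERSE (CCAAT and CCACG separated by 9 bases of any kind), for ERSE-II (ATTGG and CCACG separated by 1 base of any kind), for the core of the XBP1 element UPRE (TGACGTGG) and for a CARE element of the kind ATF4 and C/EBP proteins bind (TGATGNAAN). ERSE was found in 6 of the 32 genes (18.8%), namely CALR, CRELD2, HSP90B1, HSPA5, PDIA6 and XBP1, against 25 of 27305 genes with a window (0.0916%). ERSE-II was found in HERPUD1, HYOU1 and SDF2L1 (9.38% of the 32, against 0.0696% of all genes), the UPRE core in HYOU1 (3.12% against 0.927%) and CARE in ASNS, CHAC1 and HERPUD1 (9.38% against 4.45%). All ERSE and ERSE-II matches thus lay in genes of the XBP1 and ATF6 arms, and in HYOU1 the UPRE core overlaps 1 of its ERSE-II matches. These elements were first described in promoters of this kind, so the matches describe the members and are no independent result. The upstream stretches of 6 of them, outside every annotated exon and read 5′ to 3′ along the gene, are printed because they set genes called higher with i-BET858 at 4 h but not at 24 h (HSPA5, CALR and HERPUD1) beside a gene called lower at both times (XBP1), one called lower at 24 h only (SDF2L1) and one called higher at both times (HYOU1). Capitals mark the exact matches to the motifs, on either strand, and near matches were neither counted nor marked.
HSPA5 promoter (chr9:125241383-125241593, minus strand): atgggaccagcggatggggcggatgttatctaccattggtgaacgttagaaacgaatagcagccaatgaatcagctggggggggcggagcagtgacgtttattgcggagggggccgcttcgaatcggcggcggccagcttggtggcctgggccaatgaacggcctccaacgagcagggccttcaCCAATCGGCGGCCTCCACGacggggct
CALR promoter (chr19:12938359-12938577, plus strand): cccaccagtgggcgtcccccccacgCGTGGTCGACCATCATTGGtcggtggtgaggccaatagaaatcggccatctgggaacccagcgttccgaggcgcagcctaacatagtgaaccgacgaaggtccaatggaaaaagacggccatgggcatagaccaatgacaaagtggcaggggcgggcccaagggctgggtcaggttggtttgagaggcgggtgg
HERPUD1 promoter (chr16:56931892-56932141, plus strand): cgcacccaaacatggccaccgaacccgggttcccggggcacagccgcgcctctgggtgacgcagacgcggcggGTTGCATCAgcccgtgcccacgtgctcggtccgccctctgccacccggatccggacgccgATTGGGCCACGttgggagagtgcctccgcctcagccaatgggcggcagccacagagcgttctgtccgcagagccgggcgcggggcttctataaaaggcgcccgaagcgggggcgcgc
XBP1 promoter (chr22:28800598-28800682, minus strand): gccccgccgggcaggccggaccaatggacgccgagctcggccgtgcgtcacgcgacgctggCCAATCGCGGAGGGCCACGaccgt
SDF2L1 promoter (chr22:21642052-21642301, plus strand): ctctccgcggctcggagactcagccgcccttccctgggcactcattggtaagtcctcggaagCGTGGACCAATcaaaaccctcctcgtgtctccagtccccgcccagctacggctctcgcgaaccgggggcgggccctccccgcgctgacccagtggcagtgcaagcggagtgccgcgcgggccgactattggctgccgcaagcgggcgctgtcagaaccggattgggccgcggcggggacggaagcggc
HYOU1 promoter (chr11:119057228-119057455, minus strand): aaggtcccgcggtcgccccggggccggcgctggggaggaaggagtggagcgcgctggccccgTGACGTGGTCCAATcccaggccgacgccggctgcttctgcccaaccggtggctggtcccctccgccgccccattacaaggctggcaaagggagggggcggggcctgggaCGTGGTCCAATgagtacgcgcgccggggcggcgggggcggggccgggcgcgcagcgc
The exact ERSE match of HSPA5 starts 66 bases before the annotated start and that of XBP1 52 bases before it, both on the strand of the gene. That of CALR lies on the other strand, 225 bases before the start.

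The 18 libraries held 27323969 to 46299994 counts on genes (median 32267434). A count of 0 in a library allows up to 3 counts, or 0.0653 to 0.109 CPM over the libraries, the count scaled to the effective size of its library, which covers counting error only. Replicate 3 stood apart in each group, with 17817 to 20642 genes with a count against 23674 to 24947 in replicates 1 and 2, so the counts of calls are also given for replicates 1 and 2 by themselves. The serous markers PAX8 (387 to 612 CPM) and WT1 (102 to 180.4 CPM) were present in every library. The T-cell gene CD3E had no count in 16 of the 18 libraries, the macrophage gene CD68 none in 17, PTPRC none in 9 and LYZ none in 3, while the monocyte gene CD14 had counts in all 18 (0.0582 to 2.10 CPM). The fibroblast genes DCN and COL3A1 had none in 14, while the fibroblast gene COL1A1 was at 21.1 to 46.7 CPM and the endothelial gene VWF at 0.548 to 4.88 CPM. The replicates were described as biological ones, and the p-values measure the spread between these samples.

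Before treatment effects, the levels in DMSO at 4 h give the scale of each arm. The length used was that of all exons annotated for a gene, which can exceed that of its messenger, so the order depends on the annotation. Per kilobase of it, the chaperone genes CALR (332 CPM per kb) and HSPA5 (202 CPM per kb) of the ATF6 arm stood highest. PSAT1 (136), PDIA4 (119), ATF4 (107) and XBP1 (91.2) followed. HSP90B1, with 13092 exon bases, stood at 53.2 CPM per kb but at 696 CPM, against 930 CPM for CALR and 299 CPM for PSAT1. The sensors stood low on this scale, with ATF6 at 5.07, EIF2AK3 at 1.27 and ERN1 at 0.757 CPM per kb. Their annotated exons are long (14263, 20691 and 19153 bases), and without the length they stood at 72.3, 26.3 and 14.5 CPM. ASNS, at 0.0909 CPM per kb, was lowest, with 11 to 99 counts per library. Of its 4896 exon bases, 2415 are shared with another annotated gene on the same strand. The authors' counting leaves out reads that fit more than 1 gene, so its values are uncertain. For 15 members an exon overlaps a gene on the other strand, DDIT3 among them (413 bases). Since the strand setting of the counting is not stated, reads of the 2 genes may not be separated. Between DMSO at 24 h and DMSO at 4 h, 0 of the 33 genes were called by edgeR's quasi-likelihood test (7 of them at an unadjusted p under 0.05; 0.0386% of all genes called), and DESeq2 called 1. ERN1 had the smallest adjusted p and changed by −0.77 ± 0.17 (SE, adjusted p = 0.104), which with the replicate number as a block became −0.76, adjusted p = 0.0166.

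**Figure D1:**
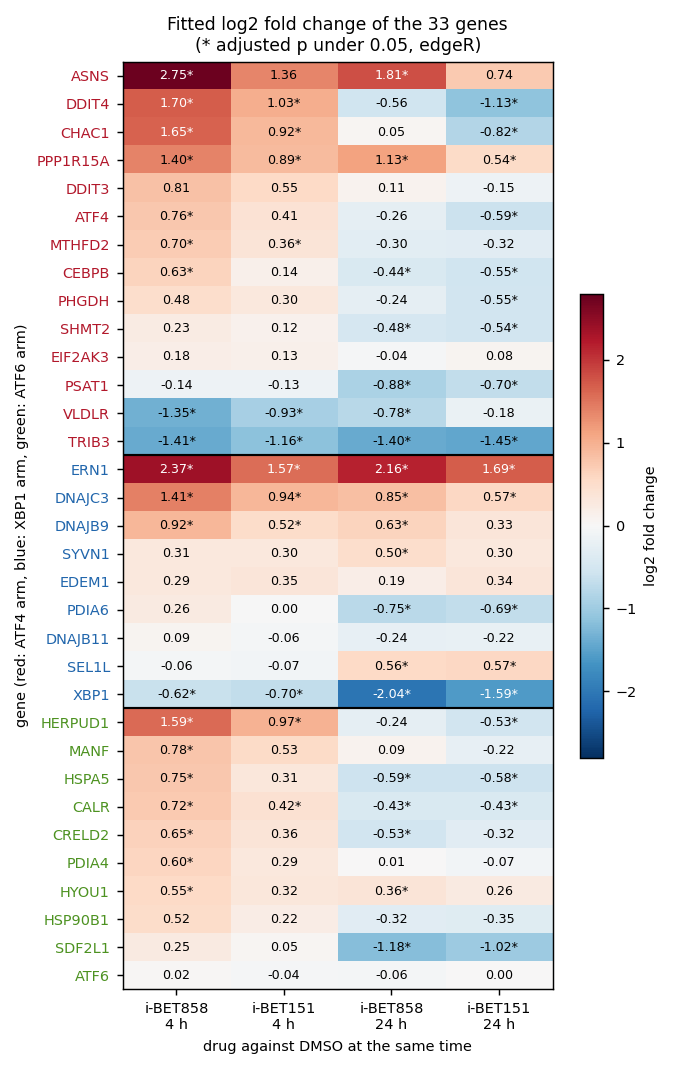
Each row is 1 of the 33 genes and each column 1 comparison of a drug with DMSO at the same time (n = 3 against 3); colour and number give the fitted log2 fold change, and an asterisk an adjusted p under 0.05. The first column is mostly red, with 17 genes called higher and 3 lower, whereas the last is mostly blue, with 4 higher and 14 lower.

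What i-BET858 did within 4 h was asked first, and effects are given as log2 fold changes against DMSO. It raised 7 of 14 genes of the ATF4 arm and 8 of 12 chaperone genes of the reticulum, while XBP1, TRIB3 and VLDLR fell. A gene was called when its adjusted p (Benjamini-Hochberg over all genes tested) was under 0.05 in edgeR's test, and 20 of the 33 genes were called, 17 of them higher and 3 lower. Over all genes 30.8% were called, 14.5% higher and 16.3% lower, so the share of members called higher (51.5%) stood above the background and that called lower (9.09%) below it. With a change of at least 2-fold as well, 7 were higher and 2 lower, against 7.08% and 7% of all genes (14.1% together). In 19 genes all i-BET858 libraries lay above all DMSO libraries and in 3 below them, a separation that 20.9% and 23.7% of all genes showed. The median log2 fold change was 0.67 in the ATF4 arm, 0.29 in the XBP1 arm and 0.62 in the ATF6 arm, against 0.02 over all genes tested. The summed level of 10 serous markers was 12529 to 13052 CPM with i-BET858 against 9869 to 11087.5 CPM in DMSO, and those of 6 fibroblast, 5 leukocyte and 3 endothelial markers overlapped between the groups. The keratin gene KRT8, at 3740 to 7369 CPM over the 18 libraries, was the largest part of the serous sum here and at 24 h. PAX8 was at 387 to 612 CPM and WT1 at 102 to 180.4 CPM. The part of the markers in the result was not tested.

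Of the regulators of the ATF4 arm, ATF4 itself (chr22:39519695-39522683, plus strand) stood at 264, 290.0 and 283 CPM in the DMSO libraries, 578, 476 and 357 CPM with i-BET858 and 419.9, 426 and 274 CPM with i-BET151 at 4 h. All libraries with i-BET858 lay above DMSO, and the rise was 0.76 ± 0.19 (SE, adjusted p = 0.0105) on the log2 scale, or 1.69-fold. Its call was lost without i-BET858 replicate 1, the highest library (0.58, adjusted p = 0.0502). DDIT3 (chr12:57516588-57521737, minus strand), which encodes the pro-apoptotic factor CHOP, stood at 6.54, 7.94 and 5.92 CPM in the DMSO libraries, 20.4, 11.6 and 3.92 CPM with i-BET858 and 12.8, 10.9 and 6.43 CPM with i-BET151. Replicate 3 lay below DMSO while replicates 1 and 2 lay above it, and the difference of 0.81 ± 0.46 (SE, adjusted p = 0.215) was not called. With replicates 1 and 2 only it was 1.14 (adjusted p = 0.00321), and without i-BET858 replicate 3 by itself 1.23 (adjusted p = 0.0118). The sensor gene EIF2AK3 (chr2:88556741-88691518, minus strand) stood at 27.3, 26.5 and 25.0 CPM in the DMSO libraries, 26.8, 36.9 and 25.5 CPM with i-BET858 and 28.5, 31.3 and 26.9 CPM with i-BET151. Its groups overlapped, and its difference was 0.18 ± 0.16 (SE, adjusted p = 0.433), with a 95% interval of −0.17 to 0.53.

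The effectors downstream of ATF4 moved in both directions. DDIT4, an inhibitor of mTORC1 signalling, stood at 8.57, 5.10 and 6.36 CPM in the DMSO libraries, 26.8, 17.9 and 20.5 CPM with i-BET858 and 17.6, 10.5 and 12.8 CPM with i-BET151. It rose by 1.70 ± 0.26 (SE, adjusted p = 4.71e-04). CHAC1, which degrades glutathione, stood at 15.6, 11.5 and 13.1 CPM in the DMSO libraries, 57.0, 37.9 and 31.1 CPM with i-BET858 and 30.8, 28.6 and 16.6 CPM with i-BET151. It rose by 1.65 ± 0.27 (SE, adjusted p = 7.66e-04). In both genes every i-BET858 library lay above every DMSO library. PPP1R15A (GADD34), the phosphatase subunit that reverses the phosphorylation of eIF2α, stood at 34.3, 37.9 and 39.2 CPM in the DMSO libraries, 109, 93.9 and 89.6 CPM with i-BET858 and 71.9, 72.7 and 62.8 CPM with i-BET151. It rose by 1.40 ± 0.13 (SE, adjusted p = 1.41e-05), with the groups far apart. By contrast TRIB3, a pseudokinase that restrains ATF4 and AKT, stood at 42.7, 29.1 and 41.3 CPM in the DMSO libraries, 14.0, 10.8 and 17.5 CPM with i-BET858 and 15.1, 15.8 and 19.9 CPM with i-BET151. It changed by −1.41 ± 0.22 (SE, adjusted p = 5.03e-04). VLDLR, a lipoprotein receptor that ATF4 is known to induce, stood at 28.3, 38.3 and 35.1 CPM in the DMSO libraries, 11.9, 16.5 and 11.5 CPM with i-BET858 and 14.3, 20.7 and 18.6 CPM with i-BET151. It changed by −1.35 ± 0.20 (SE, adjusted p = 4.25e-04). All i-BET858 libraries of TRIB3 and VLDLR lay below those of DMSO, whereas the other 3 effectors rose.

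Of the 5 enzymes of amino acid and one-carbon supply, 2 were called. ASNS, asparagine synthetase, stood at 0.338, 0.464 and 0.533 CPM in the DMSO libraries, 3.39, 2.82 and 2.81 CPM with i-BET858 and 1.81, 1.02 and 0.646 CPM with i-BET151. It rose by 2.75 ± 0.45 (SE, adjusted p = 7.90e-04), a value that rests on few counts. Without it the median of the arm was 0.63 with 6 genes called higher and 2 lower. MTHFD2, a mitochondrial folate enzyme, rose by 0.70 ± 0.10 (SE, adjusted p = 2.22e-04). The serine synthesis genes PHGDH (0.48, adjusted p = 0.0608) and PSAT1 (−0.14, adjusted p = 0.522) were not called, and neither was SHMT2 (0.23, adjusted p = 0.245), which makes glycine from serine. With the replicate block PHGDH (0.49, adjusted p = 1.01e-04) and SHMT2 (0.24, adjusted p = 0.0198) were called. CEBPB, a partner of ATF4 on its target sites, rose by 0.63 ± 0.11 (SE, adjusted p = 0.00139).

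**Figure D2:**
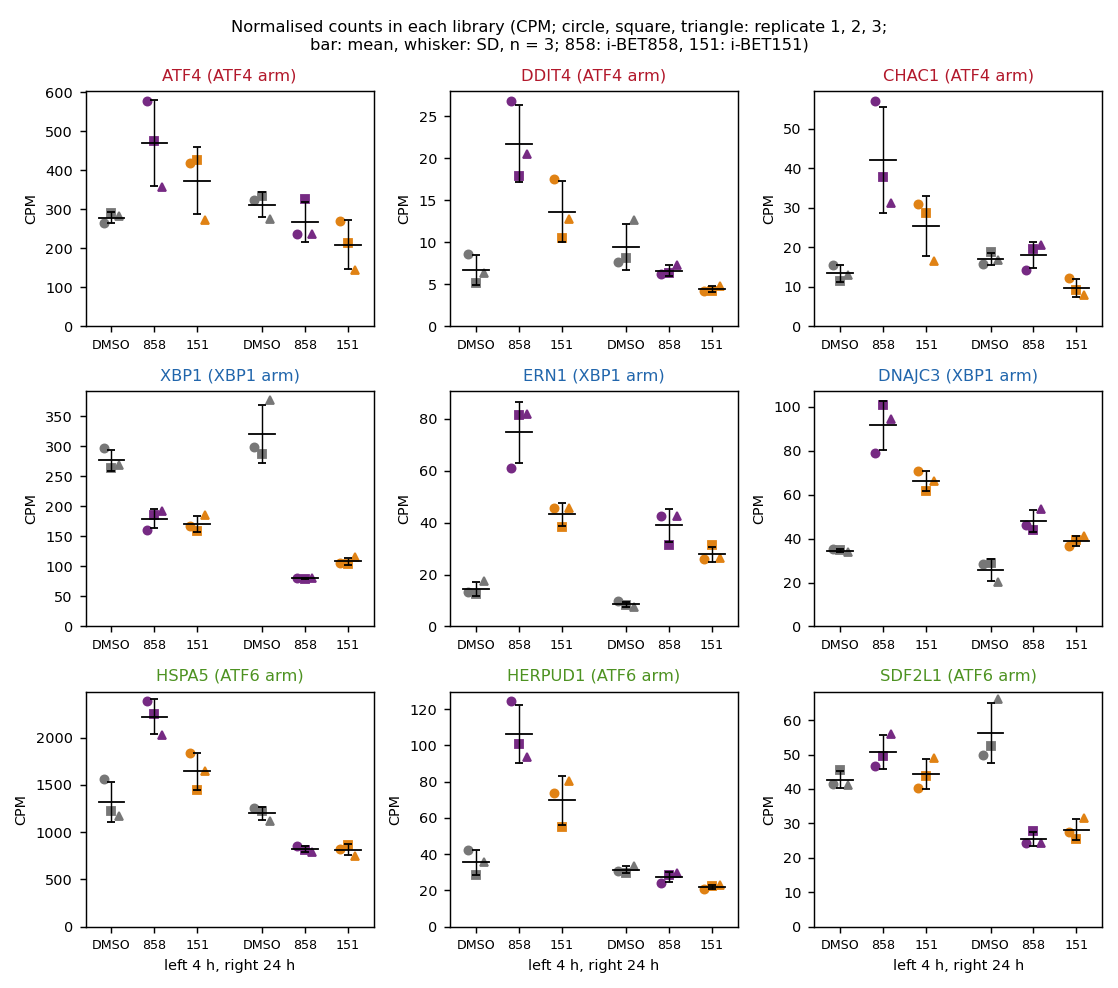
CPM (y axis, from 0) of 9 genes in every library, with the 4 h groups on the left and the 24 h groups on the right of each panel; symbols give the replicate, bars the mean and whiskers the SD (n = 3). At 4 h HSPA5 and HERPUD1 were highest with i-BET858, whereas at 24 h XBP1 and SDF2L1 were low with both drugs and ERN1 remained above DMSO.

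In the XBP1 arm the factor and its activating enzyme moved apart. XBP1 (chr22:28794555-28800597, minus strand) stood at 297, 263 and 269 CPM in the DMSO libraries, 161, 186 and 191 CPM with i-BET858 and 167, 159 and 186 CPM with i-BET151. All treated libraries lay below all DMSO libraries, and the change was −0.62 ± 0.11 (SE, adjusted p = 0.00170). ERN1 (chr17:64039080-64130819, minus strand) stood at 13.3, 12.7 and 17.6 CPM in the DMSO libraries, 61.2, 81.5 and 81.7 CPM with i-BET858 and 45.7, 38.3 and 45.5 CPM with i-BET151. It rose by 2.37 ± 0.18 (SE, adjusted p = 4.13e-06), or 5.18-fold. ERN1 had the largest log2 fold change of the arm. DNAJC3, an Hsp40 co-chaperone also known as an inhibitor of PERK, stood at 35.0, 34.6 and 33.8 CPM in the DMSO libraries, 79.0, 101 and 94.5 CPM with i-BET858 and 70.7, 61.5 and 66.1 CPM with i-BET151. It rose by 1.41 ± 0.13 (SE, adjusted p = 1.41e-05). DNAJB9, another Hsp40 protein of the reticulum that represses IRE1, stood at 27.6, 27.3 and 26.4 CPM in the DMSO libraries, 53.6, 60.1 and 39.9 CPM with i-BET858 and 39.2, 39.2 and 38.3 CPM with i-BET151. It rose by 0.92 ± 0.15 (SE, adjusted p = 8.18e-04). In these 3 genes the i-BET858 and DMSO libraries did not overlap. The other 5 genes were not called: the degradation genes SYVN1 (0.31), EDEM1 (0.29) and SEL1L (−0.06), the co-chaperone DNAJB11 (0.09) and the disulfide isomerase PDIA6 (0.26). SYVN1 and PDIA6 were called with the replicate block (adjusted p = 0.0143 and 0.0203). Without the genes shared with ATF6 the arm held 5 genes with a median of 0.92.

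The ATF6 arm moved in 1 direction, with 7 of 10 genes called higher and 0 lower. HERPUD1, a membrane protein of the degradation machinery, stood at 42.1, 28.6 and 35.8 CPM in the DMSO libraries, 125, 101 and 93.5 CPM with i-BET858 and 74.0, 54.7 and 80.3 CPM with i-BET151. It rose by 1.59 ± 0.19 (SE, adjusted p = 9.94e-05), or 3.0-fold. MANF, a secreted survival factor, stood at 88.0, 90.6 and 64.4 CPM in the DMSO libraries, 157, 150.3 and 109 CPM with i-BET858 and 123, 122 and 106 CPM with i-BET151. It rose by 0.78 ± 0.17 (SE, adjusted p = 0.00460). HSPA5 (BiP), the main Hsp70 chaperone of the reticulum, stood at 1562, 1220.2 and 1173 CPM in the DMSO libraries, 2388, 2248 and 2022 CPM with i-BET858 and 1832, 1446 and 1643 CPM with i-BET151. It rose by 0.75 ± 0.13 (SE, adjusted p = 0.00102). The i-BET858 libraries of all 3 lay above those of DMSO. CRELD2, a disulfide isomerase, stood at 25.0, 32.4 and 31.6 CPM in the DMSO libraries, 51.6, 56.4 and 31.8 CPM with i-BET858 and 38.9, 42.6 and 33.4 CPM with i-BET151. It rose by 0.65 ± 0.21 (SE, adjusted p = 0.0312), a call that was lost with total library size (0.50, adjusted p = 0.116). It was also lost in 6 of 9 fits that left out 1 library, namely any DMSO library, i-BET858 replicate 1 or 2 or i-BET151 replicate 1 (adjusted p up to 0.137). Its replicate 3 with i-BET858 lay within the DMSO range. The calreticulin gene CALR rose by 0.72 ± 0.10, the isomerase PDIA4 by 0.60 ± 0.09 and the chaperone HYOU1 by 0.55 ± 0.12 (adjusted p = 2.40e-04, 6.44e-04 and 0.00439). HSP90B1, which encodes GRP94, stood at 689.7, 869.6 and 529.6 CPM in the DMSO libraries, 1072, 1222 and 690.2 CPM with i-BET858 and 877, 927 and 630.1 CPM with i-BET151. Replicate 3 was the lowest library of each group, and the difference of 0.52 ± 0.23 (SE, adjusted p = 0.111) was called only with the replicate block (0.51, adjusted p = 3.02e-05). SDF2L1 stood at 41.4, 45.6 and 41.2 CPM in the DMSO libraries, 46.6, 49.5 and 56.1 CPM with i-BET858 and 40.2, 43.7 and 49.0 CPM with i-BET151. Its difference of 0.25 ± 0.13 (SE, adjusted p = 0.173) was not called. ATF6 itself (chr1:161766298-161977574, plus strand) stood at 75.3, 69.0 and 72.7 CPM in the DMSO libraries, 71.4, 75.1 and 73.2 CPM with i-BET858 and 68.7, 65.5 and 76.8 CPM with i-BET151. Its difference of 0.02 ± 0.11 had an interval of −0.22 to 0.27. Without the genes shared with XBP1, 5 of 7 genes were higher, with a median of 0.65.

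Of these 20 calls, 18 were made in each of the 9 fits that left out 1 library. Every gene called higher or lower had the same direction within each replicate number. The calls were made on these same libraries, so that agreement is no separate support. With replicates 1 and 2 only, 19 genes were higher and 3 lower, and with the replicate block 22 were higher and 3 lower. Over all genes these fits called 3479 higher and 3686 lower of 17116, and 3841 and 3957 of 17192. Total library size in place of TMM moved the median of all genes from 0.02 to −0.14 and the share of higher among all calls from 47.1% to 32.0%. It then called 16 members higher and 3 lower, and 1746 higher and 3718 lower of all 17192 genes.

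With i-BET151 for 4 h, fewer of the same genes were called. Of the 33 genes 12 were called, 9 higher and 3 lower, against 16.2% of all genes (7.81% higher and 8.43% lower), and 2 were higher and 1 lower at 2-fold or more (4.12% and 2.97% of all genes, 7.1% together). All 12 were among the 20 called with i-BET858. The effectors DDIT4 (1.03 ± 0.26 SE, adjusted p = 0.0185), PPP1R15A (0.89 ± 0.12 SE, adjusted p = 6.67e-04) and CHAC1 (0.92 ± 0.27 SE, adjusted p = 0.0372) rose and TRIB3 (−1.16 ± 0.21 SE, adjusted p = 0.00385) and VLDLR (−0.93 ± 0.20 SE, adjusted p = 0.00862) fell. In the XBP1 arm ERN1 rose by 1.57 ± 0.17 (SE, adjusted p = 1.62e-04), DNAJC3 by 0.94 ± 0.13 (SE, adjusted p = 5.50e-04) and DNAJB9 by 0.52 ± 0.15 (SE, adjusted p = 0.0379), and XBP1 changed by −0.70 ± 0.11 (SE, adjusted p = 0.00184). In the ATF6 arm HERPUD1 (0.97 ± 0.19 SE, adjusted p = 0.00512) and CALR (0.42 ± 0.10 SE, adjusted p = 0.0144) rose, and the folate enzyme MTHFD2 (0.36 ± 0.10 SE, adjusted p = 0.0249) did so in the ATF4 arm. The medians were 0.33, 0.30 and 0.32 in the ATF4, XBP1 and ATF6 arms, against 0.01 over all genes.

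Of the regulators and sensors not called, ATF4 stood at a difference of 0.41 (adjusted p = 0.170), DDIT3 at 0.55 (adjusted p = 0.475), EIF2AK3 at 0.13 (adjusted p = 0.638) and ATF6 at −0.04 (adjusted p = 0.845). Replicate 3 of i-BET151 (274 CPM) lay within the DMSO range for ATF4, and with replicates 1 and 2 only the difference was 0.60 (adjusted p = 0.00256). The count of calls depended on the fit. With the replicate block 21 genes were called (18 higher and 3 lower), which added ATF4, ASNS, PHGDH, HSPA5, HSP90B1, MANF, PDIA4, SYVN1 and HYOU1 at adjusted p of 3.34e-04 to 0.0434. With replicates 1 and 2 only there were 13 higher and 3 lower, and with total library size 6 higher and 3 lower, without CHAC1, MTHFD2 and DNAJB9 (adjusted p of 0.0557 to 0.0822). Over all genes the block called 2685 higher and 2931 lower of 17192, and replicates 1 and 2 only 2120 and 2313 of 17116. Total library size called 1138 and 1746 of 17192. Leaving out i-BET151 replicate 1 gave 7, and the calls of CHAC1, DDIT4, MTHFD2, DNAJB9 and CALR were each lost without at least 1 library (adjusted p up to 0.147), i-BET151 replicate 1 for all 5.

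Whether the drugs differ at the same dose and time was tested in the same fits, over 33 genes at each time with p adjusted over all genes. At 4 h, i-BET858 had the larger absolute effect in 29 of the 33 genes. This was not counted over all genes, of which i-BET858 called 30.8% against DMSO and i-BET151 16.2%, so it is not particular to the members. All 17 genes that i-BET858 raised stood higher with it than with i-BET151. They were chosen by these same i-BET858 libraries, which favours that direction, so the count is no separate support. Of the 33 differences, 0 were called by edgeR (0.971% of all genes were, 0.413% higher and 0.558% lower). At an unadjusted p under 0.05 there were 14, the smallest adjusted p was 0.0524, and DESeq2 called 6. With the replicate block 13 were called, all higher with i-BET858, and with replicates 1 and 2 only 2 were. Over all genes the block called 753 higher and 902 lower of 17192, and replicates 1 and 2 only 190 and 202 of 17116. DESeq2 called 272 higher and 395 lower of 32106. Total library size left the members at 0 and moved the share of higher among all calls from 42.5% to 16.6%. The largest blocked difference was that of ASNS (1.44, adjusted p = 0.0440), followed by ERN1 (0.79, adjusted p = 0.00166), CHAC1 (0.73, adjusted p = 0.00845), DDIT4 (0.69, adjusted p = 0.00449), HERPUD1 (0.62, adjusted p = 0.00446), PPP1R15A (0.50, adjusted p = 0.00748), CEBPB (0.48, adjusted p = 0.00239), DNAJC3 (0.47, adjusted p = 0.0136) and HSPA5 (0.45, adjusted p = 0.00148). MTHFD2, CALR, PDIA4 and HSP90B1 made up the rest. Without the block, the difference of ERN1 was 0.80 ± 0.17 with an interval of 0.43 to 1.17, and that of HSPA5 0.44 ± 0.13 with an interval of 0.16 to 0.72. For XBP1 it was 0.08 ± 0.11, with an interval of −0.17 to 0.33, and over all members the bounds of the intervals ran from −0.86 to 2.32. In 15 genes all i-BET858 libraries lay above all i-BET151 libraries and in 0 below, against 7.42% and 9.36% of all genes.

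**Figure D3:**
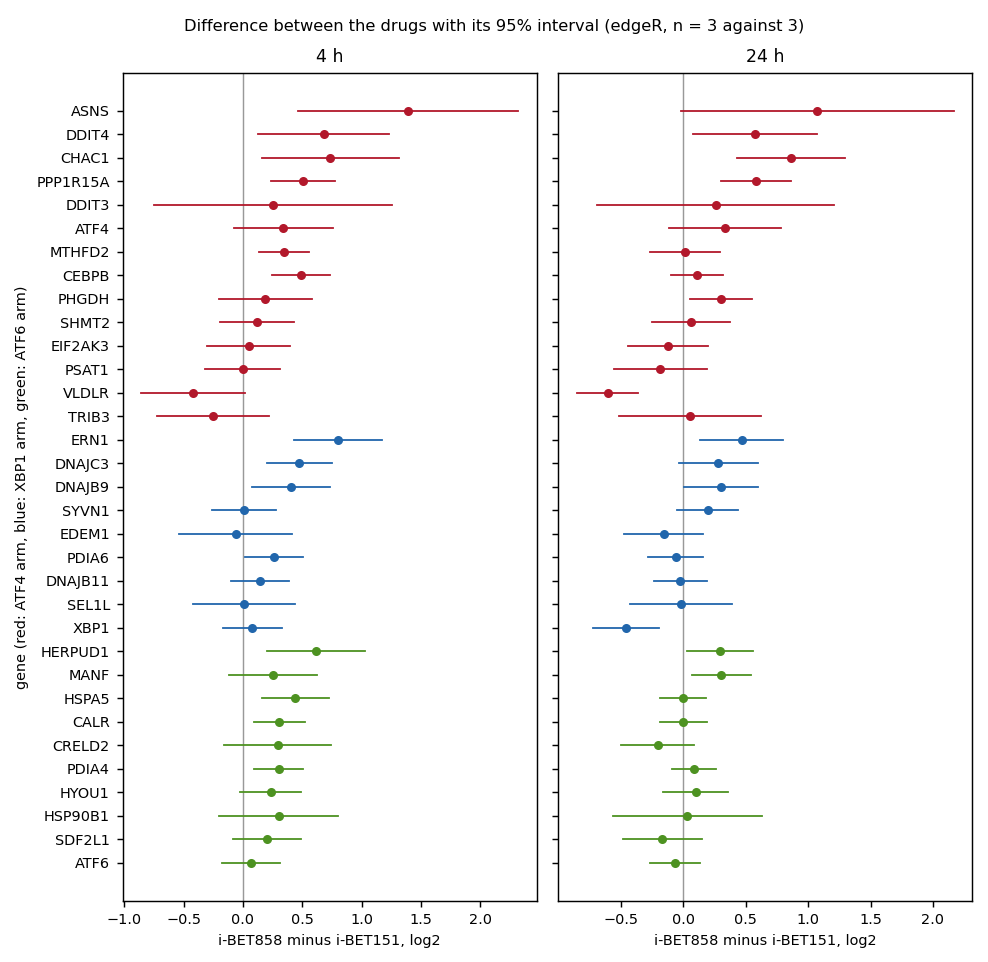
Points give the difference i-BET858 minus i-BET151 on the log2 scale at 4 h and at 24 h, with its 95% interval from edgeR without the replicate block, for each of the 33 genes. At 4 h most points lie to the right of 0, including ERN1 at 0.80, whereas at 24 h those of HSPA5 and CALR lie close to 0.

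After 24 h of i-BET858 more members were below DMSO than above it. Of 12 chaperone genes 5 were lower and 3 higher, and of the 5 enzymes of amino acid supply 2 were lower and 1 higher. ERN1 and PPP1R15A were still above DMSO, and XBP1 was at its lowest. Of the 33 genes 19 were called, 8 higher and 11 lower, against 41.7% of all genes (20.5% higher and 21.3% lower), so the share called higher (24.2%) lay near the background. At 2-fold or more 3 were higher and 3 lower, against 7.65% and 11.2% of all genes (18.8% together). In 8 genes the libraries lay all above DMSO and in 14 all below it, against 28.2% and 27% of all genes. The medians were −0.28, 0.50 and −0.28 in the ATF4, XBP1 and ATF6 arms, against −0.01 over all genes. The summed level of 10 serous markers, of which KRT8 was the largest part, was also lower in these libraries, at 7843 to 8149 CPM against 9948 to 11246 CPM in DMSO. That of 6 fibroblast markers was 21.4 to 32.0 CPM against 28.2 to 35.9 CPM, that of 3 endothelial markers 1.58 to 1.98 CPM against 3.03 to 4.62 CPM and that of 5 leukocyte markers 0.945 to 1.49 CPM against 0.879 to 2.10 CPM, and their part in the result was not tested.

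XBP1 stood at 298, 287 and 376 CPM in the DMSO libraries, 80.4, 78.7 and 80.8 CPM with i-BET858 and 106, 104 and 115 CPM with i-BET151 at 24 h. This was a difference of −2.04 ± 0.12 (SE, adjusted p = 1.13e-06) or 0.243 times the level in DMSO, with no overlap. It was the largest fall among the members. ERN1 stood at 9.66, 8.22 and 7.55 CPM in the DMSO libraries, 42.7, 31.5 and 42.7 CPM with i-BET858 and 26.0, 31.2 and 26.2 CPM with i-BET151. It was higher by 2.16 ± 0.16 (SE, adjusted p = 3.43e-06). DNAJC3 stood at 28.5, 29.0 and 20.1 CPM in the DMSO libraries, 46.2, 43.9 and 53.6 CPM with i-BET858 and 36.6, 39.2 and 41.1 CPM with i-BET151. It was higher by 0.85 ± 0.14 (SE, adjusted p = 7.91e-04). DNAJB9 stood at 19.3, 19.9 and 24.7 CPM in the DMSO libraries, 35.6, 31.9 and 34.4 CPM with i-BET858 and 26.8, 30.5 and 24.5 CPM with i-BET151. It was higher by 0.63 ± 0.14 (SE, adjusted p = 0.00344). The ubiquitin ligase SYVN1 (0.50 ± 0.11 SE, adjusted p = 0.00413) and its partner SEL1L (0.56 ± 0.19 SE, adjusted p = 0.0328) were higher at this time, whereas PDIA6 was lower (−0.75 ± 0.10 SE, adjusted p = 1.63e-04). The arm therefore held 5 genes that rose and 2 that fell, with EDEM1 (0.19) and DNAJB11 (−0.24) not called.

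In the ATF6 arm, 1 gene was higher and 4 were lower. SDF2L1, a cofactor of HSPA5, stood at 49.9, 52.5 and 66.2 CPM in the DMSO libraries, 24.3, 27.8 and 24.2 CPM with i-BET858 and 27.4, 25.5 and 31.7 CPM with i-BET151. It changed by −1.18 ± 0.14 (SE, adjusted p = 9.19e-05). HSPA5 stood at 1252, 1221 and 1122 CPM in the DMSO libraries, 854, 815 and 792 CPM with i-BET858 and 820.4, 866 and 748 CPM with i-BET151. It changed by −0.59 ± 0.08 (SE, adjusted p = 2.70e-04). CRELD2 stood at 34.7, 34.8 and 28.4 CPM in the DMSO libraries, 22.6, 25.5 and 21.8 CPM with i-BET858 and 26.6, 23.3 and 29.5 CPM with i-BET151. It changed by −0.53 ± 0.13 (SE, adjusted p = 0.00852). In each of them all i-BET858 libraries lay below DMSO. CALR fell as well (−0.43 ± 0.09 SE, adjusted p = 0.00223), while HYOU1 was higher (0.36 ± 0.12 SE, adjusted p = 0.0326). HERPUD1 stood at 30.7, 29.8 and 33.4 CPM in the DMSO libraries, 24.2, 28.2 and 29.3 CPM with i-BET858 and 20.7, 22.1 and 23.1 CPM with i-BET151. Its difference of −0.24 ± 0.12 (SE, adjusted p = 0.131) was not called. MANF stood at 103, 106 and 92.0 CPM in the DMSO libraries, 103, 124 and 101 CPM with i-BET858 and 92.0, 88.0 and 82.3 CPM with i-BET151 (0.09, adjusted p = 0.554). ATF6 stood at 64.7, 67.1 and 59.8 CPM in the DMSO libraries, 64.8, 59.7 and 64.1 CPM with i-BET858 and 61.5, 66.3 and 67.1 CPM with i-BET151 (−0.06, adjusted p = 0.621). Their groups overlapped, with intervals of −0.15 to 0.32 for MANF and −0.26 to 0.14 for ATF6.

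The ATF4 arm held 2 genes that were higher and 5 that were lower. ATF4 stood at 324, 335 and 275 CPM in the DMSO libraries, 237, 327 and 237 CPM with i-BET858 and 271, 213 and 146 CPM with i-BET151. Its difference of −0.26 ± 0.20 (SE, adjusted p = 0.339) was not called. PPP1R15A stood at 29.4, 34.2 and 25.3 CPM in the DMSO libraries, 63.1, 75.3 and 61.2 CPM with i-BET858 and 45.8, 41.0 and 44.7 CPM with i-BET151. It was higher by 1.13 ± 0.13 (SE, adjusted p = 5.96e-05). ASNS stood at 0.485, 0.404 and 0.541 CPM in the DMSO libraries, 1.26, 1.11 and 2.84 CPM with i-BET858 and 0.513, 0.943 and 0.990 CPM with i-BET151. It was higher by 1.81 ± 0.51 (SE, adjusted p = 0.0154). The i-BET858 and DMSO libraries of PPP1R15A and ASNS did not overlap, though the ASNS difference was 1.29 (adjusted p = 0.0654) without i-BET858 replicate 3. TRIB3 stood at 34.8, 36.5 and 52.9 CPM in the DMSO libraries, 12.7, 15.9 and 19.9 CPM with i-BET858 and 13.2, 11.8 and 21.0 CPM with i-BET151. It changed by −1.40 ± 0.26 (SE, adjusted p = 0.00140). VLDLR changed by −0.78 ± 0.11 (SE, adjusted p = 2.49e-04), PSAT1 by −0.88 ± 0.17 (SE, adjusted p = 0.00175), SHMT2 by −0.48 ± 0.14 (SE, adjusted p = 0.0201) and CEBPB by −0.44 ± 0.09 (SE, adjusted p = 0.00347). DDIT4 stood at 7.64, 8.12 and 12.6 CPM in the DMSO libraries, 6.18, 6.34 and 7.34 CPM with i-BET858 and 4.17, 4.20 and 4.8 CPM with i-BET151 (−0.56, adjusted p = 0.0658). CHAC1 stood at 15.7, 18.7 and 16.8 CPM in the DMSO libraries, 14.3, 19.5 and 20.5 CPM with i-BET858 and 12.4, 9.25 and 7.89 CPM with i-BET151 (0.05, adjusted p = 0.877). Neither was called, although all i-BET858 libraries of DDIT4 lay below DMSO. DDIT3 stood at 8.63, 8.29 and 2.83 CPM in the DMSO libraries, 7.90, 9.97 and 3.89 CPM with i-BET858 and 7.30, 6.63 and 4.05 CPM with i-BET151 (0.11, adjusted p = 0.867), with replicate 3 lowest in every group. EIF2AK3 stood at 21.1, 23.4 and 20.4 CPM in the DMSO libraries, 22.9, 17.4 and 24.7 CPM with i-BET858 and 21.2, 24.6 and 24.2 CPM with i-BET151 (−0.04, adjusted p = 0.868). Leaving out 1 library ended the calls of ASNS (without DMSO replicate 2 or i-BET858 replicate 3), SHMT2 (DMSO replicate 3, i-BET858 replicate 1 or 2), SEL1L and HYOU1 (each without DMSO replicate 1 or 2 or i-BET858 replicate 1 or 3), with adjusted p up to 0.110. With the replicate block DDIT4, PHGDH, MTHFD2, HSP90B1 and DNAJB11 were called lower as well, 16 in all (adjusted p of 0.00906 to 0.0378 for these 5). Replicates 1 and 2 only gave 8 higher and 16 lower. Total library size gave 7 higher and 16 lower, and HYOU1 was then not called (0.27, adjusted p = 0.0713). Over all genes the block called 4413 higher and 4513 lower of 17157, and replicates 1 and 2 only 5151 and 5356 of 17297. Total library size called 2926 and 4128 of 17157.

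With i-BET151 for 24 h, 18 of the 33 genes were called, 4 higher and 14 lower, against 33.8% of all genes (17.2% higher and 16.6% lower). The share of members called lower (42.4%) stood above the background and that called higher (12.1%) below it, and 1 gene was higher and 4 lower at 2-fold or more (5.59% and 8.09% of all genes, 13.7% together). The serous sum was 7642 to 8070.0 CPM with i-BET151, below that of DMSO as with i-BET858. The leukocyte sum was 0.0582 to 0.732 CPM and also lay below DMSO, while the fibroblast sum (23.5 to 28.2 CPM) and the endothelial sum (0.578 to 3.87 CPM) reached into the DMSO range, and their part in the result was not tested. XBP1 changed by −1.59 ± 0.12 (SE, adjusted p = 8.45e-06), TRIB3 by −1.45 ± 0.26 (SE, adjusted p = 0.00156), DDIT4 by −1.13 ± 0.23 (SE, adjusted p = 0.00296), SDF2L1 by −1.02 ± 0.14 (SE, adjusted p = 3.73e-04) and CHAC1 by −0.82 ± 0.20 (SE, adjusted p = 0.00857). ATF4 fell (−0.59 ± 0.20 SE, adjusted p = 0.0448), a call near the threshold that was lost in 6 of 9 fits without 1 library (DMSO replicate 1 or 2, i-BET858 replicate 1 or 3, i-BET151 replicate 2 or 3), with adjusted p up to 0.120, and with total library size (adjusted p = 0.0507). HERPUD1 (−0.53, adjusted p = 0.00579), HSPA5 (−0.58, adjusted p = 4.24e-04), PDIA6 (−0.69, adjusted p = 4.27e-04) and CALR (−0.43, adjusted p = 0.00296) fell among the folding and degradation genes, and PSAT1 (−0.70, adjusted p = 0.00865), PHGDH (−0.55, adjusted p = 0.00336), SHMT2 (−0.54, adjusted p = 0.0134) and CEBPB (−0.55, adjusted p = 0.00122) in the ATF4 arm. The 4 that rose were ERN1 (1.69, adjusted p = 2.66e-05), DNAJC3 (0.57, adjusted p = 0.0108), SEL1L (0.57, adjusted p = 0.0357) and PPP1R15A (0.54, adjusted p = 0.00757). The medians were −0.54, 0.33 and −0.33 in the ATF4, XBP1 and ATF6 arms, against 0.0046 over all genes. SHMT2 lost its call without i-BET151 replicate 2, and SEL1L without DMSO replicate 1 or 2, i-BET858 replicate 1 or i-BET151 replicate 2 or 3 (adjusted p up to 0.119). The replicate block added DNAJB9, EDEM1, SYVN1 and HYOU1 as higher and MTHFD2 and HSP90B1 as lower, which made 8 higher and 16 lower. With replicates 1 and 2 only, 5 were higher and 20 lower. Over all genes the block called 3988 higher and 3882 lower of 17157, and replicates 1 and 2 only 4503 and 4864 of 17297.

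At 24 h, i-BET858 had the larger absolute effect in 16 of the 33 genes. This was not counted over all genes either, of which i-BET858 called 41.7% against DMSO and i-BET151 33.8%. In 13 genes all i-BET858 libraries lay above all i-BET151 libraries and in 2 below, against 10.2% and 9.21% of all genes. Of the 33 differences 0 were called by edgeR (0.21% of all genes were, 0.0933% higher and 0.117% lower), 10 had an unadjusted p under 0.05, the smallest adjusted p was 0.0651, and DESeq2 called 3. With the replicate block PPP1R15A (0.57, adjusted p = 0.0151) and CHAC1 (0.85, adjusted p = 0.0243) were higher with i-BET858, and XBP1 (−0.45, adjusted p = 0.0158) and VLDLR (−0.60, adjusted p = 0.00976) were lower. Without it the difference was −0.45 ± 0.12 for XBP1 (95% interval −0.72 to −0.19) and 0.86 ± 0.20 for CHAC1 (95% interval 0.43 to 1.30). The differences of HSPA5 and CALR had intervals of −0.19 to 0.18 and −0.19 to 0.19, and a difference within those bounds was not detectable here. With replicates 1 and 2 only, 6 differences were called, 4 higher and 2 lower with i-BET858. Of all genes, that fit called 679 higher and 582 lower of 17297. The replicate block called 317 and 432 of 17157, and DESeq2 195 and 235 of 31703. Total library size left the members at 0 and moved the share of higher among all calls from 44.4% to 26.8%.

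How the effects changed between the times was tested as the interaction of drug and time over all 18 libraries, which uses a DMSO control of each time. The effect of i-BET858 fell in 17 of the 33 genes and rose in 0, against 12.6% of all genes that fell and 14.6% that rose (27.2% in all). By arm, 8 of 14 genes fell in the ATF4 arm, 2 of 9 in the XBP1 arm and 7 of 10 in the ATF6 arm, and 9 fell by at least 2-fold. Of all genes 8.21% fell by that much and 6.87% rose (15.1% together). DDIT4 changed by −2.22 ± 0.34 (SE, adjusted p = 1.37e-04), HERPUD1 by −1.78 ± 0.22 (SE, adjusted p = 2.02e-05) and CHAC1 by −1.57 ± 0.35 (SE, adjusted p = 0.00266), from high at 4 h to near or below DMSO at 24 h. SDF2L1 (−1.39 ± 0.19 SE, adjusted p = 3.66e-05), HSPA5 (−1.30 ± 0.16 SE, adjusted p = 1.66e-05), CRELD2 (−1.14 ± 0.26 SE, adjusted p = 0.00277) and CALR (−1.11 ± 0.13 SE, adjusted p = 9.46e-06) made up the large changes among the chaperones, and CEBPB (−1.02 ± 0.14 SE, adjusted p = 3.88e-05) that of the ATF4 partners. The effect on XBP1, already below 0 at 4 h, changed by a further −1.38 ± 0.16 (SE, adjusted p = 7.92e-06). In contrast, the effects on ERN1 (−0.17 ± 0.24, 95% interval −0.66 to 0.33), PPP1R15A (−0.23 ± 0.18, −0.60 to 0.15), TRIB3 (0.06 ± 0.34, −0.67 to 0.78) and DNAJB9 (−0.24 ± 0.20, −0.67 to 0.18) were not called as changed.

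The other 8 that fell were ATF4 (−0.97, adjusted p = 0.0218), MTHFD2 (−0.96, adjusted p = 1.67e-04), PDIA6 (−0.97, adjusted p = 9.76e-05), PSAT1 (−0.70, adjusted p = 0.0268), PHGDH (−0.68, adjusted p = 0.0265), SHMT2 (−0.66, adjusted p = 0.0191), MANF (−0.65, adjusted p = 0.0255) and PDIA4 (−0.54, adjusted p = 0.00242). Sorted by call, 6 genes were higher with i-BET858 at both times (ASNS, DNAJB9, DNAJC3, ERN1, HYOU1 and PPP1R15A), 4 were higher at 4 h and lower at 24 h (CALR, CEBPB, CRELD2 and HSPA5) and 3 lower at both (TRIB3, VLDLR and XBP1). In 16 of the 33 genes the value was positive at 4 h and negative at 24 h, called or not. ATF4, PSAT1, PHGDH, SHMT2 and MANF each lost the call in 4 to 7 of the 18 fits without 1 library (adjusted p up to 0.0861), i-BET858 replicate 1 of either time among them for all 5. With the replicate block 19 fell and 2 rose, against 3229 and 3733 of all 18154 genes tested. It added the falls of HSP90B1 (−0.75, adjusted p = 8.13e-05) and DNAJC3 (−0.52, adjusted p = 0.0302), a gene higher than DMSO at both times, and the rises of SEL1L (0.64, adjusted p = 0.00809) and VLDLR (0.61, adjusted p = 0.0206). With replicates 1 and 2 only 21 fell, and with total library size 16, without MANF (adjusted p = 0.0551). Of all genes 3699 fell and 3605 rose of 18011 in the first of these fits, and 2192 and 2779 of 18154 in the second.

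For i-BET151 the effect fell in 14 genes and rose in 1, against 13.8% of all genes (6.82% that fell and 6.99% that rose). The medians of the change were −0.64, −0.14 and −0.70 in the ATF4, XBP1 and ATF6 arms, against 0.01 over all genes, and those for i-BET858 were −0.69, −0.24 and −0.95 against 0.0031. DDIT4 (−2.14 ± 0.35 SE, adjusted p = 6.67e-04), CHAC1 (−1.71 ± 0.35 SE, adjusted p = 0.00362), HERPUD1 (−1.48 ± 0.22 SE, adjusted p = 4.04e-04) and SDF2L1 (−1.05 ± 0.19 SE, adjusted p = 0.00129) fell by at least 2-fold, as 4.2% of all genes did (2.5% rose by as much, 6.7% together). ATF4 (−0.99, adjusted p = 0.0358), HSPA5 (−0.88, adjusted p = 0.00155), XBP1 (−0.87, adjusted p = 0.00140), CALR (−0.83, adjusted p = 5.03e-04), PHGDH (−0.82, adjusted p = 0.0181), MANF (−0.73, adjusted p = 0.0262), CEBPB (−0.67, adjusted p = 0.00362), PDIA6 (−0.67, adjusted p = 0.00509), MTHFD2 (−0.65, adjusted p = 0.00839) and SHMT2 (−0.64, adjusted p = 0.0414) followed. VLDLR was the gene that rose (0.77, adjusted p = 0.0320), which was no longer called with replicates 1 and 2 only (0.65, adjusted p = 0.0852). Neither was SHMT2 (−0.53, adjusted p = 0.0595), while 19 genes fell and 1, SEL1L, rose in that fit. With total library size 13 fell and 1 rose, without ATF4 (adjusted p = 0.0534). Without 1 of 18 libraries ATF4 lost its call in 9 fits, SHMT2 in 10, VLDLR in 9, MANF in 7 and PHGDH in 3 (adjusted p up to 0.113), i-BET151 replicate 1 of 4 h for all 5. The replicate block gave 18 lower and 2 higher, adding PSAT1, HSP90B1, CRELD2 and PDIA4 as lower and SEL1L as higher. Over all genes the block gave 2178 lower and 2402 higher of 18154, and replicates 1 and 2 only 2511 and 2224 of 18011. Total library size gave 1210 and 1276 of 18154. The changes of both drugs use the same DMSO libraries and are given side by side, not as support for each other.

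**Figure D4:**
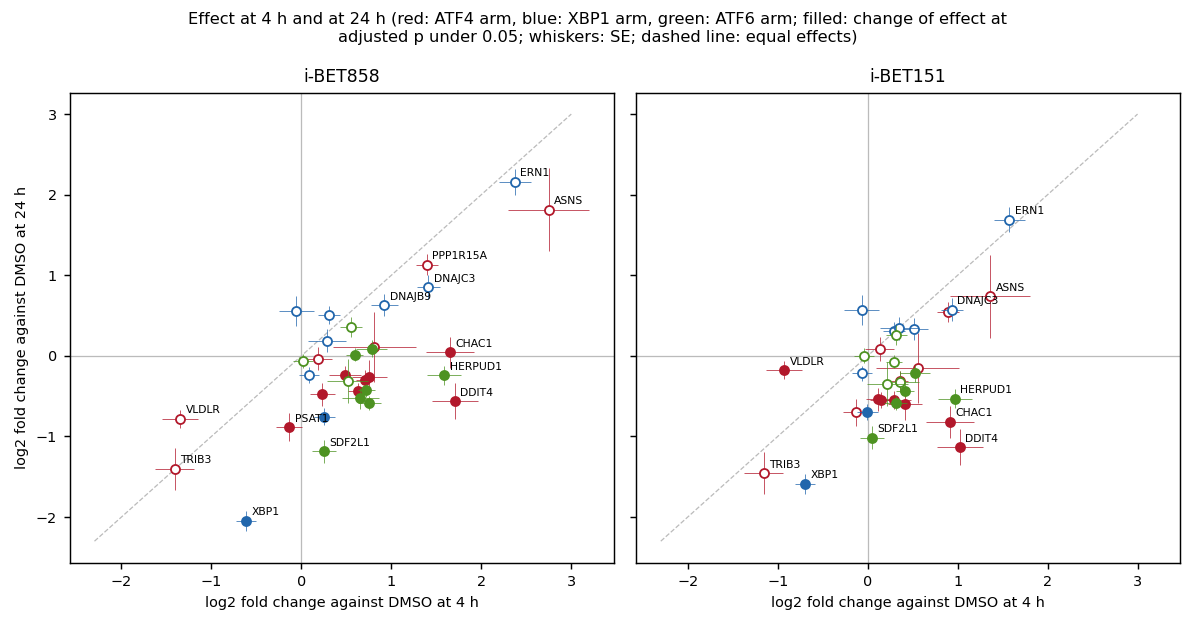
Each point is 1 of the 33 genes, with its log2 fold change against DMSO at 4 h on the x axis and at 24 h on the y axis, with SE whiskers; filled points changed between the times at adjusted p under 0.05 and the dashed line marks equal effects. With i-BET858 the 17 filled points lie below the line, among them HERPUD1, DDIT4 and XBP1, while ERN1 and PPP1R15A lie close to it.

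Other genes of these pathways were counted from 8 lists of general knowledge, none of which holds a member. Of 34 further ATF4 targets tested, 12 were higher and 3 lower with i-BET858 at 4 h, and 7 were higher and 15 lower at 24 h. The medians were 0.24 and −0.36, and with i-BET151 7 were higher and 5 lower, then 4 higher and 17 lower. CDKN1A, the cyclin-dependent kinase inhibitor p21, is also a target of p53 and had the largest rise at both times. It rose by 4.27 ± 0.27 (SE, adjusted p = 1.68e-06) at 4 h and by 3.60 ± 0.17 (SE, adjusted p = 5.54e-07) at 24 h. SESN2, an inhibitor of mTORC1, rose by 2.29 ± 0.19 (SE, adjusted p = 9.40e-06) at 4 h. NUPR1, a stress-induced chromatin protein, had no count in the 3 libraries with i-BET858 at 24 h, where 3 counts would be 0.0653 to 0.0877 CPM, and stood at 0.879, 1.04 and 1.40 CPM in DMSO. Of 20 tRNA synthetases, 1 was higher at 4 h (QARS1, 0.42, adjusted p = 0.0219), and 1 was higher and 10 lower at 24 h, with LARS1 at −1.11 ± 0.10 (SE, adjusted p = 1.38e-05) and VARS1 at −0.88 ± 0.16 (SE, adjusted p = 0.00116). Of 17 genes that act upstream of ATF4, 0 were higher and 1 lower at 4 h (EIF2AK2, the kinase PKR, −0.50 ± 0.12 SE, adjusted p = 0.00945), and 5 were higher and 3 lower at 24 h, with EIF2AK2 at −0.95 (adjusted p = 0.00139) and the mitochondrial protease gene OMA1 at −1.06 (adjusted p = 0.0209).

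Of 35 genes of translocation, glycosylation and transport, 10 were higher and 2 lower at 4 h, led by SSR4 (0.59, adjusted p = 0.00151) and SURF4 (0.55, adjusted p = 9.54e-04), and 5 were higher and 8 lower at 24 h, led by KDELR3 (−2.25, adjusted p = 0.0448) and ARFGAP3 (0.94, adjusted p = 0.0146). Of the folding genes 7 of 22 were higher and 1 lower at 4 h, and 8 of 21 were higher and 2 lower at 24 h. The oxidase gene ERO1B and the co-chaperone gene DNAJC1 rose most at both times. ERO1B rose by 2.24 (adjusted p = 8.00e-04) at 4 h and by 1.82 (adjusted p = 2.77e-05) at 24 h, and DNAJC1 by 1.11 (adjusted p = 0.00460) and by 1.65 (adjusted p = 1.73e-06). Of 20 degradation genes 3 were higher and 3 lower at 4 h, with OS9 at 0.55 (adjusted p = 0.00227) and FAF2 at −1.07 (adjusted p = 2.21e-04), and 7 were higher and 1 lower at 24 h, with the segregase VCP at 1.04 (adjusted p = 1.38e-05) and DERL3 at −1.43 (adjusted p = 0.0335). Of 16 other transcription factors and signalling genes 1 was higher and 4 lower at 4 h, then 5 higher and 4 lower. CREB3L1, a membrane-bound factor related to ATF6, rose by 3.34 (adjusted p = 5.89e-05) at 4 h and by 2.41 (adjusted p = 3.79e-04) at 24 h, while TRAF2, an adaptor of IRE1, fell at 4 h (−1.38, adjusted p = 0.00124) and GTF2I, a factor that binds ERSE, at 24 h (−0.90, adjusted p = 0.00101). Of 20 cytosolic and mitochondrial heat shock genes 7 were higher and 2 lower at 4 h, with BAG3 at 1.98 (adjusted p = 1.06e-06) and HSPA1B at 1.21 (adjusted p = 0.0179), and 2 were higher and 7 lower at 24 h, with CLPP at −1.23 (adjusted p = 0.00114) and HSPE1 at −1.04 (adjusted p = 6.35e-04). The shares of all genes called higher and lower in these comparisons are those given above (14.5% and 16.3% at 4 h, 20.5% and 21.3% at 24 h for i-BET858, and 7.81% and 8.43%, then 17.2% and 16.6%, for i-BET151).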

How the data were processed

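Poly-A RNA of 18 OVCAR-3 libraries, 3 in each of 6 groups, was sequenced in paired ends and aligned by the authors with STAR to GRCh38 (hg38), and the deposited values are raw read counts per gene from STAR. The annotation, the strand setting and the STAR version are not given in the sources used here, and a table's name was the only source of its time point. Of 58825 Ensembl genes 23896 had no count, and 58472 matched a symbol. The 33 members, the arms, the marker lists and the 8 pathway lists were chosen with earlier results of these data known.

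Counts of the 9 libraries of a time were fitted together with edgeR 4.0.16 in R 4.3.3 (filterByExpr, TMM, quasi-likelihood test), the change between the times and DMSO at 24 h against 4 h in 1 fit of all 18 libraries, and p was adjusted over all genes by the method of Benjamini and Hochberg. All 33 members passed the low-count filter in every fit, and 17192, 17157 and 18154 genes were tested at 4 h, at 24 h and over both. Tests were two-sided, and a gene was called at adjusted p under 0.05. SE and 95% intervals come from the fits, and every CPM, markers and floors included, from effective sizes with TMM factors over all libraries. The scripts were tested on simulated counts. Alternatives were DESeq2 1.42.0, its size factors, total library size, other low-count filters, only the groups compared, all libraries in 1 fit, each library left out, replicates 1 and 2 only, the replicate number as a block and, chosen after seeing the data, that block within replicates 1 and 2 and the ATF4 arm without ASNS.

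The replicate numbers paired the libraries. Deviations from the group means correlated at 0.125 to 0.344 (4 h) and 0.145 to 0.330 (24 h) between libraries of different groups with the same number, and at −0.311 to 0.216 and −0.304 to 0.285 otherwise. Blocked values stand beside a result where they change it. Named genes were the regulators ATF4, DDIT3, XBP1 and ATF6, the sensors ERN1 and EIF2AK3 and, in each arm, the 3 called genes with the largest log2 fold change with i-BET858 at each time, and of each pathway list the 2 largest called. The genes of the tRNA synthetase list that were lower at 4 h are not reported here. VLDLR and HSP90B1 (at 4 h) and NUPR1 (DMSO and i-BET858 at 24 h) were given by library too, chosen after their values were seen. Promoter windows came from RefSeq (GRCh38.p14, 35116 windows). The members' exons were compared with GENCODE 44, where 16 overlap another gene.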

Additional observations from a re-analysis of the deposited data

Results flagged for a closer look

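The effect of a drug differed between 4 and 24 h, by a test of the difference itself in edgeR (n = 3 libraries a group, adjusted p under 0.05), for 17 genes with i-BET858 and 15 with i-BET151. With i-BET858 the change of the log2 effect was −2.22 for DDIT4, −1.78 for HERPUD1, −1.57 for CHAC1, −1.39 for SDF2L1, −1.38 for XBP1, −1.30 for HSPA5, −1.14 for CRELD2, −1.11 for CALR, −1.02 for CEBPB, −0.97 for ATF4, −0.97 for PDIA6, −0.96 for MTHFD2, −0.70 for PSAT1, −0.68 for PHGDH, −0.66 for SHMT2, −0.65 for MANF and −0.54 for PDIA4. With i-BET151 it was −2.14 for DDIT4, −1.71 for CHAC1, −1.48 for HERPUD1, −1.05 for SDF2L1, −0.99 for ATF4, −0.88 for HSPA5, −0.87 for XBP1, −0.83 for CALR, −0.82 for PHGDH, −0.73 for MANF, −0.67 for PDIA6, −0.67 for CEBPB, −0.65 for MTHFD2, −0.64 for SHMT2 and, in the other direction, 0.77 for VLDLR. The drugs share the DMSO libraries of each time. Between the DMSO libraries of the times edgeR called 0 of the 33 genes (7 at an unadjusted p under 0.05), and DESeq2 called 1.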

How the results depend on the processing

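Of 132 log2 values followed over the alternatives, 80 kept their direction and their side of the threshold in every one, 24 lost a call under at least 1, 20 gained one and 8, none of them called in edgeR as reported, changed sign; the cause was not tested. With the requirement of a 2-fold change the members called were 9 (i-BET858, 4 h), 3 (i-BET151, 4 h), 6 (i-BET858, 24 h) and 5 (i-BET151, 24 h), and 9 and 4 for the change of the i-BET858 and i-BET151 effects, fewer by construction. Of the 12 calls with i-BET151 at 4 h the replicate block made 21, and 19 within replicates 1 and 2. They ranged from 7 to 13 when 1 library was left out. The count of 0 between the drugs at 4 h became 13 with the replicate block (12 within replicates 1 and 2), 6 with DESeq2, 5 with all 18 libraries in 1 fit, 3 without a low-count filter, 2 with replicates 1 and 2 only, 1 with at least 10 counts in every library and 0 to 1 with 1 library left out (1 without DMSO replicate 3). At 24 h it became 4 with the replicate block (3 within replicates 1 and 2), 6 with replicates 1 and 2 only, 3 with DESeq2, 3 without a filter and 0 to 2 with 1 library left out (2 without DMSO replicate 3). The calls over all genes moved too. Between the drugs at 4 h, 71 higher and 96 lower became 753 and 902 with the replicate block. The block within replicates 1 and 2 gave 557 and 550, DESeq2 272 and 395, and all 18 libraries 171 and 378. At 24 h, 16 and 20 became 317 and 432 with the block and 397 and 344 within replicates 1 and 2. For i-BET151 at 4 h the block within replicates 1 and 2 called 2764 higher and 3000 lower. Between the DMSO times 1 member was called with DESeq2, 1 without a filter and 1 with the replicate block. The block ended no call, and beyond those named in the report it changed no other.

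The values that changed sign were those of ATF6, EIF2AK3 and DDIT3. For ATF6 with i-BET858 at 4 h the log2 fold change was −0.14 with total library size and −0.021 to 0.046 with 1 library left out, and with i-BET151 at 4 h −0.11 to 0.0044. With i-BET151 at 24 h it was −0.017 with DESeq2 and −0.017 with its size factors, −0.032 with total library size, −0.0035 with at least 10 counts, −0.083 with replicates 1 and 2 only, blocked or not, and −0.032 to 0.038 with 1 library left out. For EIF2AK3 it was −0.0048 to 0.28 with i-BET858 at 4 h and −0.12 to 0.097 at 24 h with 1 library left out, 0.0028 at 24 h with all 18 libraries, and with i-BET151 at 24 h −0.0025 with replicates 1 and 2 only (−0.0023 with the replicate block). For DDIT3 at 24 h it was −0.23 to 0.42 with i-BET858 and −0.50 to 0.089 with i-BET151. With 3 libraries a group, and with 11 to 99 counts of ASNS in a library, differences smaller than the intervals given were not detectable.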
